A study of Mus musculus with 8 samples.

Results

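Endothelial cells take part in the balance between clotting and clot removal, and 9 genes with such roles were examined here. These were F3, F8 and Vwf on the procoagulant side, Thbd, Procr, Tfpi and Pros1 on the anticoagulant side, and Plat and Plau in fibrinolysis. The genes were taken by symbol for their known roles, with earlier results of these data known. All 9 were among the 33641 gene symbols of the 8 libraries, and all 9 passed the minimum of 1 TPM (a length-corrected share of each library's transcripts, scaled to the same sum in all libraries) in at least 4 libraries that left 14964 genes for testing.

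The libraries came from tumor-associated endothelial cells (TECs), sorted as CD45-CD31+ cells by FACS from microdissected Lewis Lung Carcinoma (LLC) tumors 21 days after LLC cells, a mouse lung cancer line, were placed in the left lung. The 4 endFoxf1+/- libraries came from Pdgfb-iCreER;Foxf1 fl/+ mice, whose Cre is expressed from Pdgfb sequences in endothelium and, once switched on by tamoxifen, cuts exon 1 out of 1 of the Foxf1 alleles. The 4 control libraries came from single-transgenic littermates, which carried either the Foxf1 fl/+ allele or Pdgfb-Cre, and the labels do not say which. Both groups had received tamoxifen as young adults, had a C57Bl/6 background and carried LLC tumors. FOXF1 is a forkhead transcription factor of lung endothelium, and the comparison asked which of the clotting genes differed when 1 allele was lost. The series counts 4 mice in each group, but no label ties a library to a single mouse, so p-values measure the spread between these libraries.

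Clotting in tissue starts when tissue factor, the product of F3, meets factor VII in plasma, and the resulting thrombin is restrained at the vessel wall. TFPI blocks the tissue factor complex, while thrombomodulin (Thbd) and the endothelial protein C receptor (Procr) together turn thrombin into an activator of protein C, for which protein S (Pros1) is the cofactor. Von Willebrand factor (Vwf) is stored in Weibel-Palade bodies, captures platelets and carries factor VIII (F8), and the plasminogen activators Plat and Plau start fibrin removal.

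The endFoxf1+/- libraries were unequal in endothelial RNA. Relative to the control mean, the geometric mean TPM of 20 endothelial markers was 106% in endFoxf1+/- replicate 1, 107% in replicate 2, 5.51% in replicate 3 and 58.1% in replicate 4, against 85.8% to 109% in the controls. Pecam1, the gene of the sorted CD31 antigen, was at 77.5 TPM in replicate 3 and at 914 to 1505 TPM in the other 7 libraries. In replicate 3 the summed TPM of 12 myeloid markers was 9288 (controls 1475 to 5137) and that of 11 fibroblast and pericyte markers was 1346 (controls 75.4 to 146). The latter sum was carried by the fibroblast genes Col3a1 at 556, Dcn at 533 and Lum at 183 TPM, while the pericyte gene Rgs5 was at 0.602 TPM, below its control range of 10.7 to 18.9 TPM. Of these 11 markers, 5 were above all controls in replicate 3 and 3 below. The fibroblast gene Col1a2, at 2.39 TPM against 2.80 to 8.24 TPM, was among those below. In replicate 4 the fibroblast and pericyte markers summed to 314 TPM. Its sums of 9 epithelial markers, 23250 TPM, and of the myeloid markers, 4709 TPM, were inside the control ranges. Those ranges were 6518 to 30809 and 1475 to 5137 TPM. Its 6 mesothelial markers summed to 38.8 TPM, against 7.40 to 32.3 TPM in the controls. The median correlation of log2(TPM + 1) with the other libraries, across genes, was 0.795 for replicate 3, 0.892 for replicate 4 and 0.958 to 0.968 for the remaining 6. In bulk libraries of sorted cells like these, fewer endothelial cells and less RNA per endothelial cell cannot be told apart. Transcripts of 4 Y-linked genes summed to 14.1 to 21.7 TPM in control replicate 4 and endFoxf1+/- replicates 2 and 3 and to 107 to 137 TPM in the others, so both groups held libraries at both levels. The low sums were not alike in make-up. In endFoxf1+/- replicate 3 Eif2s3y was at 8.63 TPM, against 0.930 in control replicate 4 and 0.366 in endFoxf1+/- replicate 2. Uty was lower there, at 5.03 TPM against 7.97 and 14.5 TPM.

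Each gene is therefore given on 2 scales, as its own TPM and relative to the mean log2(TPM + 1) of the 20 endothelial markers in the same library. The fold between groups is the difference of mean log2(TPM + 1), which understates the change of low genes. It was tested by an exact two-sided permutation test over all 70 assignments, which cannot give a p below 0.0286, and by limma across all tested genes. Without endFoxf1+/- replicate 3 there are 35 assignments, and 0.0571 is the smallest p that can be reached.

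Foxf1 itself was at 213, 285, 296 and 331 TPM in control replicates 1 to 4 and at 177, 203, 14.04 and 105 TPM in endFoxf1+/- replicates 1 to 4. All 4 endFoxf1+/- libraries lay below all 4 controls, in the direction of the labels, with a log2 difference of -1.68 (SE 0.723) and an exact permutation p of 0.0286. Without replicate 3 the difference was -0.83. Relative to the endothelial markers it was -0.51 (exact permutation p = 0.0571).

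No gene of the whole table passed a limma adjusted p of 0.05 (0 of 14964, 0.0%), while 836 fell under 0.05 before adjustment. Higher levels in endFoxf1+/- TECs accounted for 422 of them, 2.82% of tested genes, and lower levels for 414, 2.77%. Among the 9 clotting genes, Procr was in the first group and Vwf in the second. Higher TPM in every endFoxf1+/- library than in every control was seen for 2.73% of tested genes, and lower TPM in every one for 2.31%. Procr was the 1 clotting gene of the first kind, and none was of the second kind. On the TPM scale 3 of the 9 were higher on average and 6 lower, with a median log2 difference of -0.20, beside 68.0% lower and a median of -0.17 over all tested genes. Without replicate 3, 5 were higher and 4 lower, with a median of 0.09 beside 0.01.

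**Figure D1:**
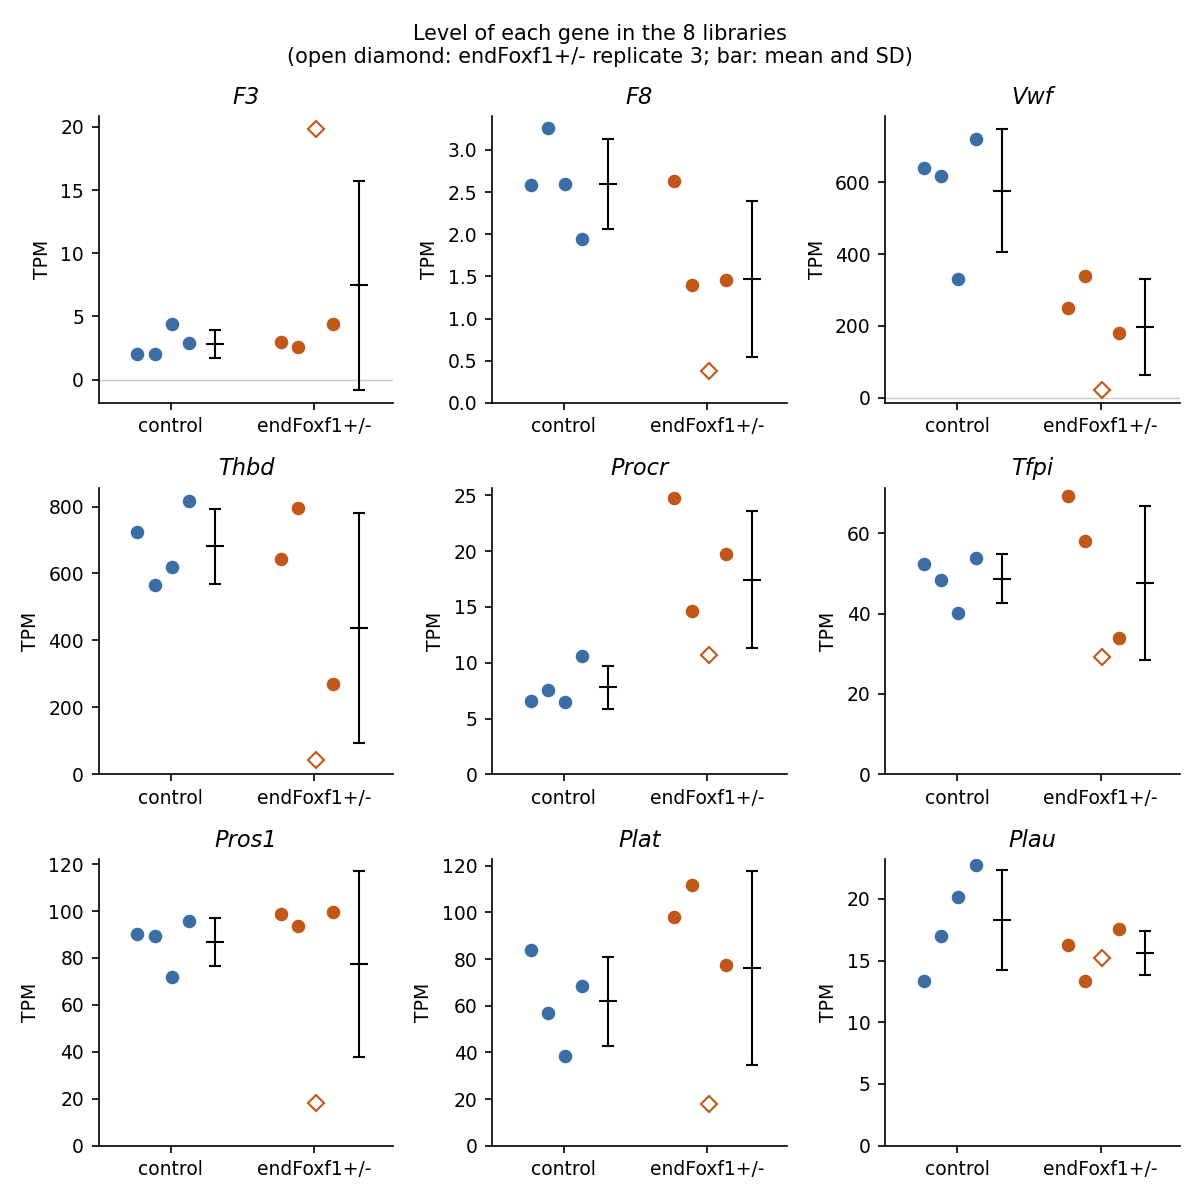
TPM of each of the 9 genes (vertical axes, linear) in the 4 control libraries (blue) and the 4 endFoxf1+/- libraries (orange), with the mean and SD of each group as black bars and endFoxf1+/- replicate 3 as an open diamond. Procr was above every control in all 4 endFoxf1+/- libraries, Vwf was below every control in 3 of 4, and the SD bars of Thbd, Pros1, Plat and F3 are widened by replicate 3.

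Vwf, the platelet-capturing multimer of the Weibel-Palade bodies, gave the largest log2 difference of the 9 genes on the TPM scale with all 8 libraries, while without replicate 3 that of Procr was larger. Its levels were 639, 617, 329 and 722 TPM in control replicates 1 to 4, a mean of 577 ± 171 (SD, n = 4). In endFoxf1+/- replicates 1 to 4 they were 251, 338, 21.7 and 179 TPM, a mean of 197 ± 134 (SD, n = 4). Replicate 2 of the endFoxf1+/- group stood just above control replicate 3, the lowest control, and the other 3 endFoxf1+/- libraries were below every control. The log2 difference was -2.02 (SE 0.756), with an exact permutation p of 0.0571, a limma unadjusted p of 0.0245 and a limma adjusted p of 0.790. Without replicate 3 it was -1.16, and without replicates 3 and 4, the pair with low endothelial markers, it was -0.92.

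Vwf was also low on average beside the endothelial markers. On that log2 scale the controls stood at 0.27, 0.30, -0.39 and 0.40 and the endFoxf1+/- libraries at -1.08, -0.66, -0.37 and -0.70, so that replicate 3 and control replicate 3 nearly met and the other 3 endFoxf1+/- libraries were below all controls. The relative difference was -0.85 (exact permutation p = 0.0571). It was -0.98 against Pecam1 alone and -0.90 against the median of the markers, each with an exact permutation p of 0.0286, and -0.83 against Cdh5 alone, with an exact permutation p of 0.0571. Without replicate 3 the groups no longer overlapped and the difference was -0.96, a direction and separation shared by 1.74% of tested genes, and it was -1.02 without replicates 3 and 4. Platelets and their precursors also carry VWF. The summed TPM of 9 platelet and megakaryocyte markers was 807, 1697, 1382 and 1245 in control replicates 1 to 4 and 622, 492, 353 and 945 in endFoxf1+/- replicates 1 to 4 (exact permutation p = 0.0571), and its part in the Vwf difference was not tested.

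F8, which encodes the cofactor carried by von Willebrand factor, was near the 1 TPM minimum throughout. Its TPM was 2.58, 3.26, 2.599 and 1.94 in the controls and 2.64, 1.40, 0.379 and 1.46 in endFoxf1+/- TECs. Again 3 of the 4 endFoxf1+/- libraries were below all controls, but replicate 1 was not, and the log2 difference of -0.61 (SE 0.331) had an exact permutation p of 0.114 and a limma adjusted p of 0.790. Beside the endothelial markers the difference was 0.56, and without replicate 3 it was -0.17. In the GENCODE vM21 annotation F8 overlaps Gm8522 on its own strand and Gm6039 and Fundc2 on the other, the library kit does not mark strand, and its TPM may include reads of these genes. None of the other 8 genes overlaps another annotated gene.

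F3, tissue factor, was high in 1 library. It was at 2.06, 2.002, 4.39 and 2.91 TPM in the controls and at 3.01, 2.59, 19.8 and 4.44 TPM in endFoxf1+/- TECs. Replicate 3, with the high myeloid and fibroblast sums and the low endothelial markers, carried 698% of the control mean, and the other 3 endFoxf1+/- libraries lay inside the control range or just above it. With all libraries the log2 difference was 0.77 (SE 0.538, limma adjusted p = 0.790), and it was 0.20 without replicate 3. The genes whose profiles over the 8 libraries came nearest to F3 were Fam129a and Angptl2, at a root mean square distance of 0.181 and 0.210 on the centred log2 scale, both highest in replicate 3 at 26.1 and 57.7 TPM.

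Among the anticoagulant genes, Procr and Thbd, which act in the same reaction, parted. Procr was at 6.54, 7.51, 6.48 and 10.6 TPM in control replicates 1 to 4, a mean of 7.78 ± 1.93 (SD, n = 4). In endFoxf1+/- replicates 1 to 4 it was at 24.7, 14.7, 10.7 and 19.7 TPM, a mean of 17.5 ± 6.12 (SD, n = 4). The ratio of the means was 2.24. The groups did not overlap, although endFoxf1+/- replicate 3 was above control replicate 4 by less than 0.1 TPM. The log2 difference was 1.03 (SE 0.305), with an exact permutation p of 0.0286, a limma unadjusted p of 0.00749 and a limma adjusted p of 0.790. It was 1.23 without replicate 3, where 6.5% of all tested genes were higher without overlap, and 1.22 without replicates 3 and 4. With libraries weighted by their fit (array weights), the limma adjusted p was 0.0335 and the difference 1.31, among 148 genes that passed. Some fibroblast genes separated the groups in the same direction. Dcn was at 7.64 to 22.7 TPM in the controls and at 47.2, 36.6, 533 and 82.6 TPM in endFoxf1+/- TECs. Lum was at 2.45 to 7.10 and at 21.4, 15.3, 183 and 39.7 TPM, and Col3a1 also separated. The groups overlapped for the fibroblast genes Col1a1, Col1a2 and Pdgfra. Of the 12 myeloid markers, C1qa and Cd68 were higher without overlap and the others overlapped. The pericyte gene Rgs5 was below all controls in all 4 endFoxf1+/- libraries. The part of such cells in the Procr difference was not tested.

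Relative to the endothelial markers Procr ranged from -6.14 to -5.56 in the controls and stood at -4.37, -5.10, -1.33 and -3.82 in endFoxf1+/- TECs. The difference was 2.20 (exact permutation p = 0.0286), 1.43 without replicate 3 and 1.12 without replicates 3 and 4. These values have to be read beside a general shift, since 97.1% of tested genes were higher in endFoxf1+/- libraries on this scale and the median over tested genes was 0.999, or 0.21 without replicate 3. The genes nearest to Procr in profile were Tmem26, at a distance of 0.247, and Peg3, at 0.287. Peg3 was at 3.44, 3.72, 2.38 and 8.19 TPM in the controls and 10.3, 8.42, 4.05 and 8.46 TPM in endFoxf1+/- TECs.

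The Procr promoter is shown because Procr was the clotting gene whose groups separated. The 150 bases directly before its first GENCODE vM21 transcript start lie at chr2:155750967-155751116 on the plus strand of GRCm38.p6 (RefSeq). Capitals mark the letters TGACTCA, the core of an AP-1 site, which ends 48 bases before that start.

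Procr: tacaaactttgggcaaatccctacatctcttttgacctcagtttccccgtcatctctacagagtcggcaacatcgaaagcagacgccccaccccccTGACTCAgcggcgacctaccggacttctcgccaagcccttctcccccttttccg

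The forkhead core TGTTTAC was searched on both strands in RefSeq windows of 300 bases around each start, most of them upstream, and a promoter counted once however many matches it held. The table of RefSeq promoters used here gave 6 such sequences for 5 of the 9 genes (Procr, F3, F8, Pros1 and Tfpi), and the other 4 were not analysed. None of the 6 contained TGTTTAC, which was present in 3.65% of 32851 promoters. TGACTCA, searched in the same way but chosen after the sequence had been seen, was in the Procr and F3 promoters, 2 of 6, and in 5.2% of all promoters. Such matches are letters in a window and describe no binding.

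Thbd, the thrombin-binding partner of Procr in protein C activation, was the most abundant of the 9 genes. Its TPM was 723, 565, 619 and 818 in the controls, a mean of 681 ± 112 (SD, n = 4). In endFoxf1+/- TECs it was 642, 797, 44.0 and 269, a mean of 438 ± 344 (SD, n = 4). Replicates 1 and 2 were inside the control range, and replicates 3 and 4, with the low endothelial markers, were below it. The log2 difference of -1.26 (SE 0.784, exact permutation p = 0.314) became -0.38 without replicate 3 and 0.09 without replicates 3 and 4. On the relative scale it was -0.10 (exact permutation p = 0.686). Of the 9 genes Thbd lay closest to the mean endothelial profile, at a distance of 0.239 against 0.512 for Vwf and 2.19 for F3. Its nearest genes were Mfng, a Notch-modifying glycosyltransferase, and Hecw2, at 0.081 and 0.097.

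The log2 ratio of Thbd to Procr within a library (1 TPM added to each) was 6.58, 6.05, 6.37 and 6.14 in the controls and 4.64, 5.67, 1.95 and 3.70 in endFoxf1+/- TECs. Every endFoxf1+/- library was below every control. The difference was -2.30, and it was -1.62 without replicate 3 and -1.13 without replicates 3 and 4. Since Thbd followed the endothelial markers closely, this ratio is not independent of the relative level of Procr, a scale on which the median over tested genes was 0.999.

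Tfpi, the inhibitor of the tissue factor complex, was at 52.3, 48.4, 40.3 and 53.9 TPM in the controls and at 69.4, 58.1, 29.3 and 33.97 TPM in endFoxf1+/- TECs. Replicates 1 and 2 of the endFoxf1+/- group were above all controls and replicates 3 and 4 below all of them. The log2 difference was -0.11 (SE 0.300, exact permutation p = 0.771), and its sign turned to 0.09 without replicate 3. Relative to the endothelial markers the controls kept within -3.39 to -3.31, while endFoxf1+/- TECs stood at -2.92, -3.18, 0.05 and -3.06, all higher. The relative difference of 1.06 (exact permutation p = 0.0286) was close to the median of 0.999 over all tested genes, and the 0.28 without replicate 3 was close to the corresponding 0.21. Against Pecam1 alone or Cdh5 alone the groups overlapped, with an exact permutation p of 0.143 and of 0.0571.

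Pros1, the protein C cofactor, was at 90.2, 89.4, 71.8 and 95.7 TPM in the controls and at 98.6, 93.8, 18.2 and 99.5 TPM in endFoxf1+/- TECs. All endFoxf1+/- libraries except replicate 3 lay at the upper end of the control range or just above it. Pros1 differed by -0.42 on the log2 scale (SE 0.506, exact permutation p = 0.971) and turned to 0.17 without replicate 3. On the relative scale it was 0.75 (exact permutation p = 0.0857), 0.36 without replicate 3 and 0.06 without replicates 3 and 4. Its nearest profiles were those of Cds2 and St3gal1.

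In fibrinolysis, Plat, the tissue plasminogen activator of endothelium, was at 83.8, 56.9, 38.6 and 68.6 TPM in the controls, a mean of 62.0 ± 19.1 (SD, n = 4). In endFoxf1+/- TECs it was at 98.2, 112, 17.7 and 77.4 TPM, a mean of 76.3 ± 41.5 (SD, n = 4). Replicates 1 and 2 were above all controls, replicate 4 was inside their range and replicate 3 was below it. The log2 difference was 0.07 (SE 0.541, exact permutation p = 0.943), 0.66 without replicate 3 and 0.80 without replicates 3 and 4.

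Set against the endothelial markers, Plat ran from -3.45 to -2.65 in the controls and was -2.43, -2.25, -0.65 and -1.90 in endFoxf1+/- TECs, higher in all 4. The relative difference was 1.24 (exact permutation p = 0.0286). It was 0.85 without replicate 3, where the groups remained apart (exact permutation p = 0.0571, the smallest possible), and 0.71 without replicates 3 and 4. The median over tested genes was 0.999 with all libraries and 0.21 without replicate 3.

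Plau, the urokinase gene, varied least. It was at 13.4, 16.9, 20.2 and 22.7 TPM in the controls and at 16.3, 13.3, 15.2 and 17.5 TPM in endFoxf1+/- TECs, with overlapping groups. Plau differed by -0.20 on the log2 scale (SE 0.237, exact permutation p = 0.286) and -0.19 without replicate 3. Replicate 3, where the endothelial markers were at 5.51% of the control mean, had 83.0% of the control mean of Plau.

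Procr, Tfpi and Plat were the 3 of 9 genes higher without overlap relative to the mean of the endothelial markers (Procr and Plat also against Pecam1 or Cdh5 alone), on a scale where 9.07% of tested genes were so, and 9.08% without replicate 3. None of the 9 was lower without overlap with all libraries, as were 0.0535% of tested genes.

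**Figure D2:**
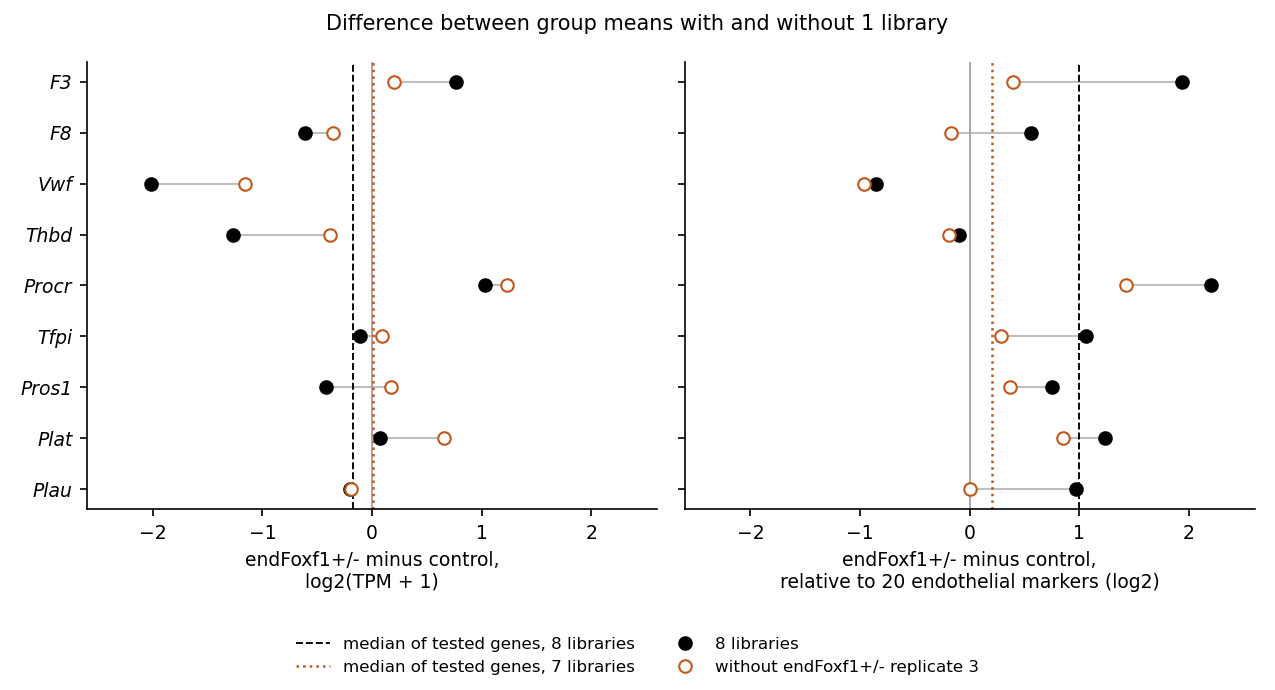
Difference of group means, endFoxf1+/- minus control, for the 9 genes on the log2(TPM + 1) scale (left) and relative to 20 endothelial markers (right), with all 8 libraries (black) and without endFoxf1+/- replicate 3 (open). Vertical lines mark the medians over 14964 tested genes. With all libraries Vwf was the lowest and Procr the highest of the 9 on both scales, and without replicate 3 Tfpi and Pros1 went from below to above 0 on the left.

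The 9 genes did not share 1 pattern across the unequal libraries. In replicate 3 Vwf was at 3.77% and Thbd at 6.46% of the control mean, close to the 5.51% of the endothelial markers. F8 at 14.6%, Pros1 at 21.0%, Plat at 28.5% and Tfpi at 60.1% were lowered less, Plau was at 83.0%, Procr at 137% and F3 at 698%. In replicate 4, with endothelial markers at 58.1%, Vwf was at 31.0% and Thbd at 39.5%, whereas Pros1 was at 115%, Plat at 125%, F3 at 156% and Procr at 254%. Replicates 1 and 2 had endothelial markers at the control level. Their summed myeloid markers, 2673 and 1944 TPM, were inside the control range, but 8 and 9 of the 12 single markers were above all controls. Of the 11 fibroblast and pericyte markers, which summed to 198 and 128 TPM, 6 and 3 were above all controls and 2 and 3 below. The part of such cells in the gene levels was not tested. In these 2 libraries Vwf was at 43.5% and 58.6%, Procr at 318% and 189%, Plat at 158% and 180% and Tfpi at 142% and 119% of the control mean.

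**Figure D3:**
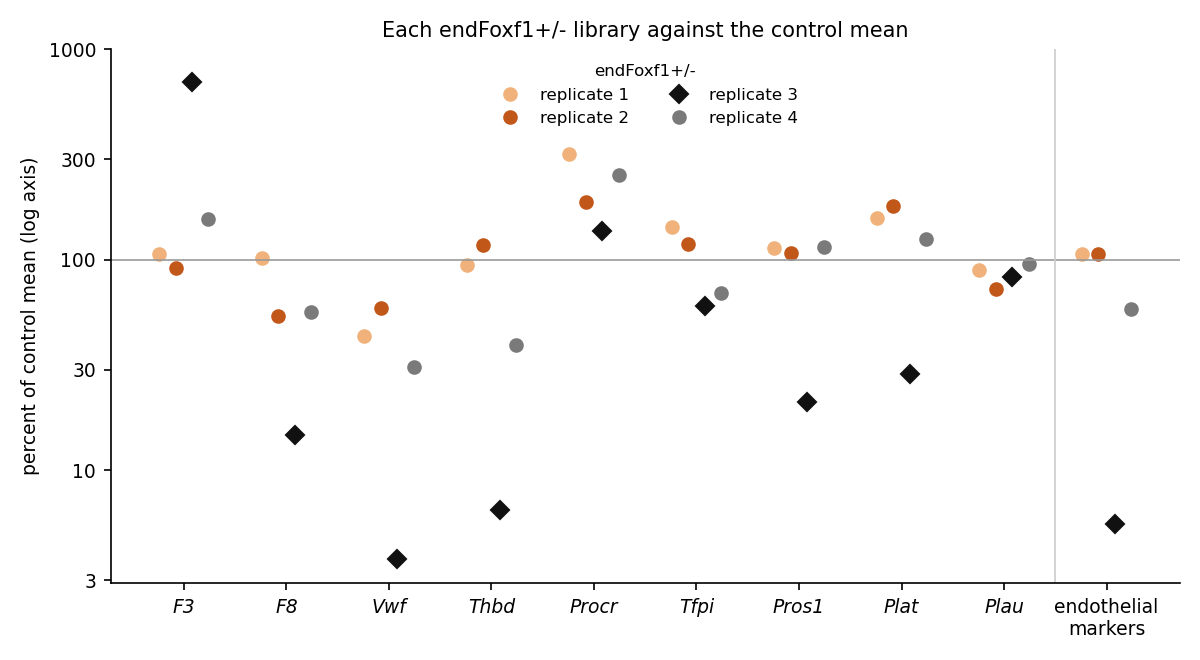
Level of each gene in endFoxf1+/- replicates 1 to 4 as a percent of the control mean (log axis), with the geometric mean of 20 endothelial markers at the right and a line at 100. Replicate 3 (diamonds) spread from 3.77% for Vwf to 698% for F3 while its endothelial markers were at 5.51%, and Vwf was below the line and Procr above it in all 4 libraries.

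The order of mean levels in the controls was Thbd, Vwf, Pros1, Plat, Tfpi, Plau, Procr, F3 and F8. The neighbours Thbd and Vwf, Pros1 and Plat, Plat and Tfpi, and F3 and F8 had overlapping ranges and the other neighbours did not. In endFoxf1+/- TECs Procr stood above Plau, in 3 of 4 libraries, and the order was otherwise the same, but the ranges of all neighbours except Tfpi and Procr overlapped.

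The other within-library ratios overlapped between groups. Tfpi over F3, inhibitor over target, ran from 2.94 to 4.13 in the controls on the log2 scale and from 0.54 to 4.13 in endFoxf1+/- TECs. The low end was replicate 3, and the difference went from -0.88 to -0.11 without it. Vwf over F8, carrier over cargo, differed by -1.41 and by -0.80 without replicate 3. Plau over its receptor gene Plaur differed by 0.21, and by 0.02 without replicate 3. Plat over Plau differed by 0.27, and leaving out 1 library moved this from -0.07 (without endFoxf1+/- replicate 2) to 0.85 (without replicate 3).

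**Figure D4:**
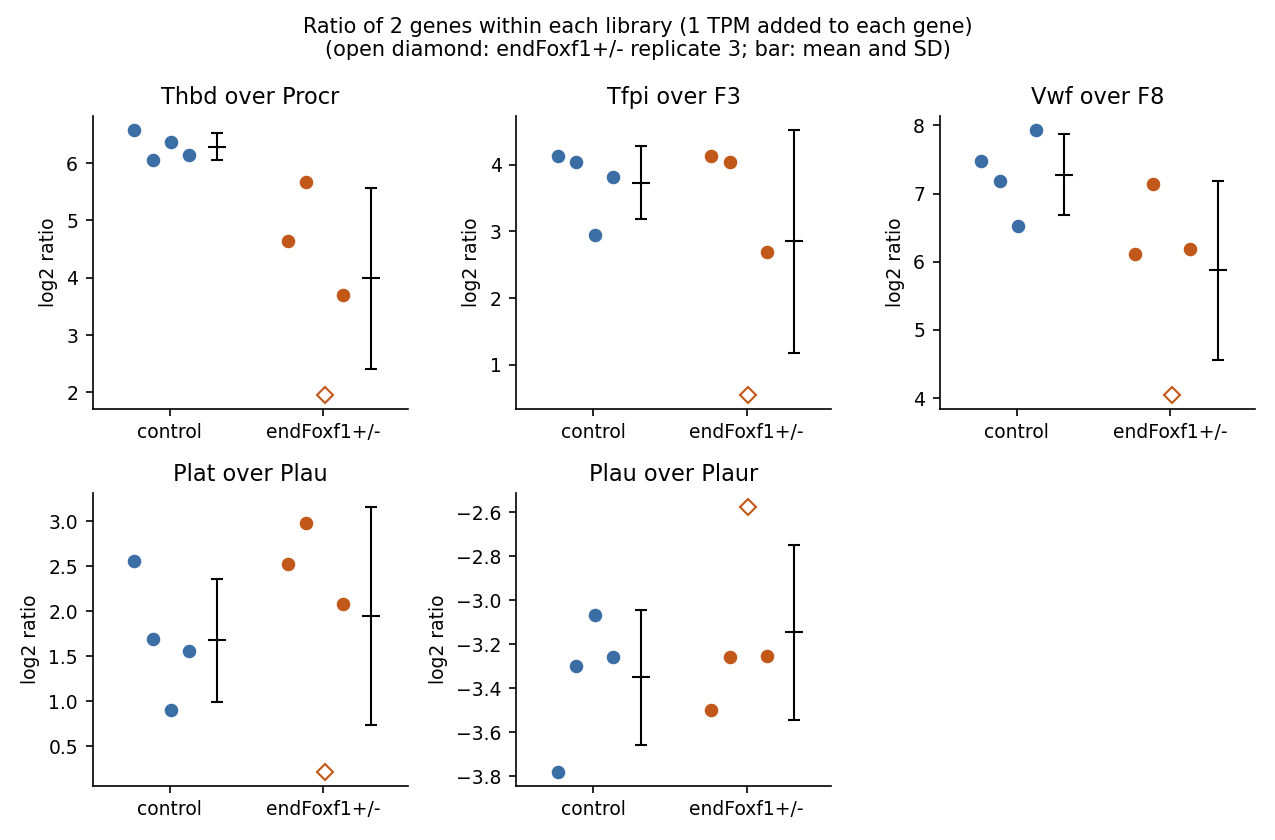
Within-library log2 ratios of 5 gene pairs (1 TPM added to each) in control (blue) and endFoxf1+/- (orange) libraries, with the mean and SD of each group as black bars and endFoxf1+/- replicate 3 as an open diamond. Thbd over Procr was between 6.05 and 6.58 in the controls and below 6.05 in every endFoxf1+/- library, and the other 4 ratios overlapped.

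A wider list of 56 clotting and fibrinolysis genes gave 36 genes that could be tested and 20 below the TPM minimum, of which F12, F13b, Fgb, Proc and Hrg were listed at 0 in all libraries. None of the 36 passed the limma adjusted threshold. At an unadjusted p under 0.05, 3 were higher and none lower, beside 2.82% and 2.77% of all tested genes, and 3 were higher without overlap of the groups and none lower, beside 2.73% and 2.31%. By sign 13 were higher and 23 lower, with a median log2 difference of -0.16, close to the 68.0% lower and the median of -0.17 over all tested genes. Without replicate 3, 22 were higher and 14 lower, with a median of 0.04 beside 0.01. The coagulation inhibitors had 2 of 6 higher and 4 lower, the clotting factors 2 of 4 higher, and the thrombin receptors 2 of 4 higher. Of the fibrinolysis genes 3 of 7 were higher, of the Vwf storage and clearance genes 2 of 9, and of the genes for factor maturation 2 of 6. These counts turned on replicate 3, without which 8 of 9 Vwf storage and clearance genes and 4 of 6 coagulation inhibitors were higher.

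Lrp1, an endocytic receptor that clears von Willebrand factor, factor VIII and plasminogen activator complexes, gave the largest of these differences. It was at 5.02, 3.46, 4.17 and 3.12 TPM in the controls and at 9.11, 8.40, 61.7 and 37.1 TPM in endFoxf1+/- TECs. All endFoxf1+/- libraries were higher, and the 2 highest were replicates 3 and 4, with the high fibroblast sums. Replicate 3 also had the highest myeloid sum. The part of other cells in this difference was not tested. The log2 difference was 2.16 (SE 0.593, limma unadjusted p = 0.00497, adjusted p = 0.790), 1.65 without replicate 3 and 0.995 without replicates 3 and 4.

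S100a10, the annexin A2 partner that binds plasminogen at the cell surface, was at 404, 316, 324 and 386 TPM in the controls and at 499.9, 507.6, 1169 and 449 TPM in endFoxf1+/- TECs. It was higher without overlap, with a log2 difference of 0.76 (SE 0.334, limma unadjusted p = 0.0472, adjusted p = 0.790) and 0.45 without replicate 3. Lman1, a cargo receptor for secretion of factors V and VIII, was higher without overlap too, at 55.5 to 67.8 TPM in the controls and 71.5 to 82.8 TPM in endFoxf1+/- TECs. Its log2 difference was 0.30 (exact permutation p = 0.0286, limma unadjusted p = 0.138). Cd63, a membrane protein of Weibel-Palade bodies and of lysosomes in many cells, was at 69.8 to 121 TPM in the controls and at 159, 115, 789 and 372 TPM in endFoxf1+/- TECs, with a log2 difference of 1.502 (limma unadjusted p = 0.0212, adjusted p = 0.790). It was 0.99 without replicate 3 and 0.51 without replicates 3 and 4. The highest values of S100a10 and Cd63 were in replicate 3, with the high myeloid and fibroblast sums, whose part in these differences was not tested.

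Selp, the P-selectin that shares the Weibel-Palade body with von Willebrand factor, was at 20.6 to 27.3 TPM in the controls and at 32.1, 15.6, 1.27 and 29.4 TPM in endFoxf1+/- TECs, a log2 difference of -0.84 that was 0.04 without replicate 3. F5, the cofactor V gene, was at 12.1 to 25.9 TPM in the controls and at 9.45, 6.22, 2.11 and 34.2 TPM in endFoxf1+/- TECs, so that 3 libraries were below and 1 above all controls. Plaur, the urokinase receptor, differed by -0.41 and F2r, the thrombin receptor, by -0.11, both with overlapping groups, and without replicate 3 by -0.21 and -0.04. Adamts13, the protease that trims von Willebrand factor, was under 1 TPM in every library and was not tested.

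The 9 genes lie on 7 chromosomes in the GRCm38 build. Thbd (chr2:148404466-148408188, minus strand), Procr (chr2:155751117-155755471, plus) and Tfpi (chr2:84432855-84476775, minus) are on chromosome 2. Vwf is at chr6:125546774-125686679 (plus), F3 at chr3:121723537-121735048 (plus), F8 at chrX:75172715-75382615 (minus), Pros1 at chr16:62854307-62929346 (plus), Plat at chr8:22757727-22782844 (plus) and Plau at chr14:20836660-20843385 (plus). Each library holds 1 TPM value per gene symbol, so isoforms were not resolved, and how exons enter that value is not given.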

How the data were processed

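RNA-seq of 8 sorted TEC samples (4 control, 4 endFoxf1+/-, Nextera XT libraries, day 21) was used. The authors deposited 1 table per library with a TPM value for each gene symbol. The submitters' processing notes name TopHat, Cufflinks, Subread and DESeq2 and the build GRCm38 (mm10). Which tool made the TPM, and with which annotation, is not given in the sources used here. Each library sums to 1000000 TPM, so read depth is unknown and no counting interval is given. DESeq2, used in the study, needs counts and was not run. TPM are shares: a high content of other cells lowers endothelial genes.

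Genes with at least 1 TPM in at least 4 libraries were tested on log2(TPM + 1) with limma 3.58.1 (R 4.3.3; trended variance, Benjamini-Hochberg adjustment over 14964 genes). Single values were tested by exact two-sided permutation. Of the symbols, 32159 matched GENCODE vM21. No 2 of the 8 libraries (28 pairs) held identical values. The genes and lists were chosen with earlier results of these data known. Wider pathway genes were named where groups did not overlap or the unadjusted p was under 0.05, and Plaur, F2r, F5, Adamts13 and Selp in any case (1 further gene of this rule is not reported here), and the 2 nearest profiles per gene were sought. Alternatives were other pseudocounts, filters, scalings, variance models and references, and leaving out libraries. All groups come from the genotype labels.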

Additional observations from a re-analysis of the deposited data

Results flagged for a closer look

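In groups of 4, a library was singled out when its gap to the nearest other library was more than the 95% critical share of the group's range (Dixon's criterion). Of 52 group and measure combinations examined, 3 met it, and chance flags about 1 in 20. Pros1 in endFoxf1+/- replicate 3 was at 4.26 on the log2(TPM + 1) scale, with the other 3 libraries of the group between 6.57 and 6.65. Tfpi relative to the endothelial markers was at 0.0467 in the same library, with the other 3 between -3.18 and -2.92. Vwf relative to the endothelial markers was at -0.39 in control replicate 3, with the other 3 controls between 0.27 and 0.40. That control had the highest summed epithelial markers, 30809 TPM against 6518 to 10071 TPM in the other controls, and the part of these in the low value was not tested.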

How the results depend on the processing

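The number of genes past the limma adjusted threshold was 0, and it was 148 with array weights, which weighted endFoxf1+/- replicates 3 and 4 at 0.0643 and 0.178 and the other libraries at 1.17 to 3.85. It was 3 without endFoxf1+/- libraries 3 and 4 together and 0 to 1 when 1 library was left out, the 1 gene being Rpl3-ps1 without control replicate 1 and Esr1 without endFoxf1+/- replicate 3. The number with an unadjusted p under 0.05 was 836, 519 with a minimum of 5 TPM, 2866 with array weights, 1813 without libraries 3 and 4 and 426 to 1616 when 1 library was left out. With array weights Procr had a log2 difference of 1.31 (limma adjusted p = 0.0335) and Vwf of -1.11 (limma adjusted p = 0.0897). The number of the 9 genes with separate groups was 1, and 2 under quantile normalization and median-ratio scaling (Procr higher, Vwf lower), 3 without libraries 3 and 4 (Procr, Tfpi and Plat higher), and 1 to 2 when 1 library was left out. The second gene was Vwf without control replicate 3 or endFoxf1+/- replicate 2 and F8 without endFoxf1+/- replicate 1. With all libraries, 2.73% of tested genes were higher without overlap and 2.31% lower, and without replicate 3, 6.5% were higher. No such share is given here for the other settings. Smaller groups also separate more easily, so the counts are not read as a result about the 9 genes. Quantile and median-ratio scaling moved the median over tested genes from -0.17 to -0.01. The number separated relative to the endothelial markers stayed within 1.5 times its value of 3 under 13 alternatives, but the genes changed with the reference. Foxf1 differed by -1.46 with quantile normalization (exact permutation p = 0.0571), by -0.55 without libraries 3 and 4, and by -2.08 to -0.83 when 1 library was left out, where no p below 0.05 can be reached. Signs turned on the log2(TPM + 1) scale for Thbd (0.0855 without libraries 3 and 4), for Tfpi (0.0531 quantile, 0.0825 median-ratio, 0.39 array weights, 0.38 without libraries 3 and 4, and -0.32 to 0.0884 when 1 library was left out), for Pros1 (0.13 array weights, 0.15 without libraries 3 and 4, and -0.63 to 0.17 when 1 library was left out) and for Plat (-0.21 to 0.66 when 1 library was left out). Relative to the endothelial markers they turned without libraries 3 and 4 for F3 (-0.072), F8 (-0.37) and Plau (-0.37), and, when 1 library was left out, for F8 (-0.17 without replicate 3, up to 0.97 without replicate 2) and for Thbd (-0.19 without replicate 3 to 0.0542 without replicate 4). Tfpi no longer separated against Pecam1 alone (0.93, exact permutation p = 0.143) or Cdh5 alone (1.08, exact permutation p = 0.0571), while Vwf did against Pecam1 and the marker median and Pros1 against Cdh5 (0.77, exact permutation p = 0.0286). The causes of the changes between settings were not tested. Within-library ratios turned for Plat over Plau (-0.07 to 0.85 when 1 library was left out), and without libraries 3 and 4 for Tfpi over F3 (0.36) and Plau over Plaur (-0.03). No paired analysis was possible because the labels carry no replicate numbers: those used here follow the order of deposit in each group and pair no libraries.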

Other observations

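Clotting genes made mainly in liver went different ways in endFoxf1+/- replicate 4, and the genes given here were chosen after their values were seen. Fgg, the fibrinogen gamma chain, was at 21.0 TPM there and at 0.485 to 1.84 TPM in the other libraries. Serpinf2, the plasmin inhibitor, was at 8.09 TPM there and at most 1.17 TPM elsewhere, and Serpina10, an inhibitor of factor X, at 7.21 and at most 0.933 TPM. Serpinc1, the antithrombin gene, was lower there, at 3.88 TPM against 8.05 to 12.5 TPM in the controls, and Klkb1 was at 0.0574 TPM against 0.214 to 0.387 TPM, but both were also low in endFoxf1+/- replicate 3, at 2.63 and 0.0572 TPM. Fga was at 3.20 TPM in replicate 4 and at most 0.291 TPM elsewhere. F11 was at 1.66 TPM there, at 1.17 TPM in endFoxf1+/- replicate 2 and at most 0.0349 TPM elsewhere. F2 was at 0.430 TPM, inside the control range, and F9, F12, Fgb, Kng1, Plg, Proc and Hrg were listed at 0. These zeros were not particular to replicate 4. F12, Fgb, Proc and Hrg were at 0 in all libraries, and F9, Kng1 and Plg did not exceed 0.284 TPM in any.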
